A study of Mus musculus with 6 samples.

Results

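Oasl2, Usp18, Xaf1, Psmb9 and Tap1 are 5 interferon-stimulated or antigen processing genes, picked by symbol from the 581 genes of a deposited table of differential expression. Their values on these same libraries were known when they were picked, so the difference between culture surfaces is given below as a description, with no p-value. Whether a fit over the whole table called a gene is stated beside the share of the table called, and supports nothing about these genes. The cells were NIH-3T3, an immortal fibroblast line from mouse embryos, labelled WT, with RNA sequencing of 3 libraries from cells on the Nanopore #3 scaffold and 3 libraries from cells on standard plates. All cells were kept in DMEM with fetal bovine serum, streptomycin and penicillin, and the labels name no interferon, virus or other stimulus. The series asks what the scaffold does to fibroblast gene expression. The labels do not give the material of the scaffold, the time in culture or whether the replicates were separate cultures.

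Interferons are secreted proteins that bind cell surface receptors and, through kinases at the receptor, switch on a set of genes by way of DNA elements called ISRE and GAS. Fibroblasts are a classic cell type for this response, and many interferon-stimulated genes are also transcribed at a low level in cultured cells to which no interferon was added. The products include antiviral enzymes, regulators that end the signal, and the parts of the class I antigen pathway, in which proteasomes cut proteins to peptides, the TAP transporter moves the peptides into the endoplasmic reticulum and class I molecules carry them to the cell surface.

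All 5 genes had lower values in scaffold cells than in plate cells, and for each of them the highest scaffold library lay below the lowest plate library. In the whole table, 66.4% of the genes had every scaffold library below every plate library. In the limma fit on log2(value + 1), the threshold of 0.05 on the adjusted p was also passed by all 5, beside 392 genes (67.5%) called lower and 579 genes (99.7%) called in either direction. Since the authors had chosen the table on the same contrast, nothing can be read from these counts. The median log2 fold change, scaffold against plates, was -1.27 over the 5 genes, -1.16 over all 581 genes and -1.38 over the 392 genes called lower. Values are read counts divided by a size factor per library, and are not corrected for gene length. In such bulk samples, fewer cells that express a gene and less RNA per cell cannot be told apart.

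**Figure D1:**
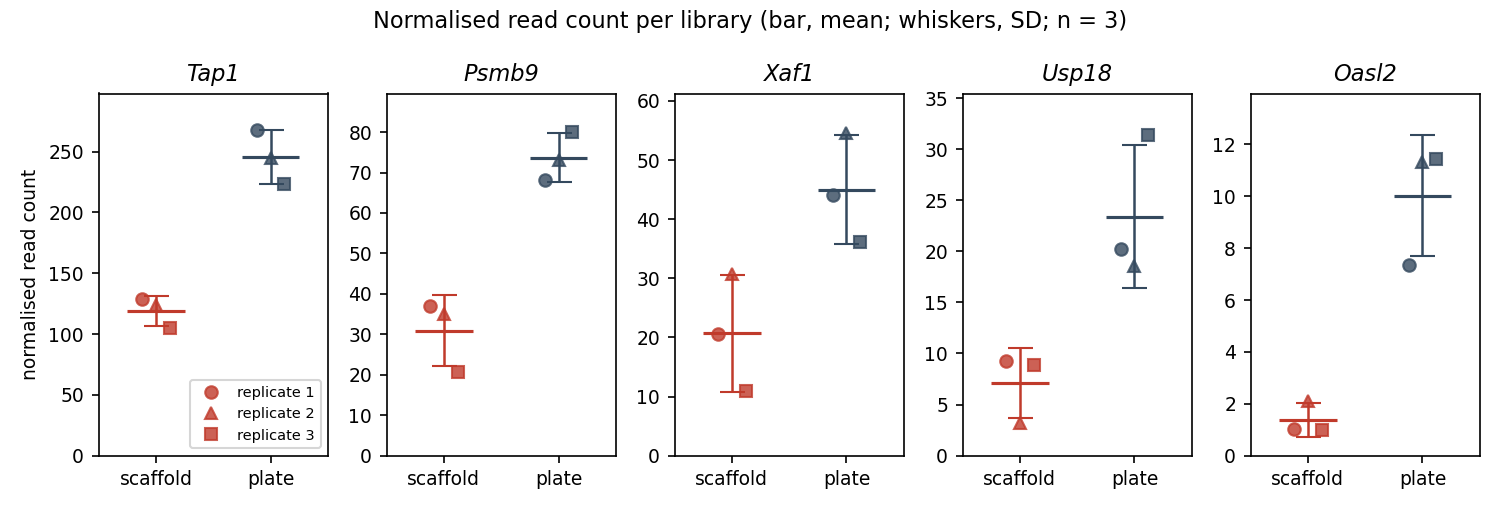
Normalised read count (vertical axes, each from 0) of the 5 genes in the 3 scaffold and 3 plate libraries; points are libraries, bars are means and whiskers are SDs. In every panel the scaffold points lie below the plate points, and the ratio of the lowest plate point to the highest scaffold point is smallest in Xaf1.

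Oasl2 encodes an oligoadenylate synthetase-like protein, one of a family of antiviral proteins that interferon induces, and was the lowest of the 5 genes. It is annotated on chromosome 5, 114896936 to 114912234 on the plus strand (ENSMUSG00000029561; GRCm38 coordinates, as for all genes here). Its normalised count was 1.03, 2.12 and 0.990 in scaffold replicates 1 to 3, against 7.36, 11.3 and 11.4 in plate replicates 1 to 3. Scaffold cells thus gave 1 or 2 reads per library where reads could be counted, and plate cells 8, 11 and 12. Over the 5 libraries with countable reads, 3 scaffold reads stood against 31 plate reads, a normalised scaffold to plate ratio of 0.157 with an exact 95% interval of 0.0307 to 0.503 that covers counting error only. The log2 fold change was -2.22 (SE 0.42), which ranked 35 among the 392 decreases. Its size depended on the pseudocount: it was -2.83 with 0.1 and -2.92 with 0.01 in place of 1.

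Usp18 encodes the protease that removes the ubiquitin-like modifier ISG15 from proteins, and it also dampens signalling at the type I interferon receptor. The gene lies on chromosome 6, 121245906 to 121270917, plus strand (ENSMUSG00000030107). Its normalised count was 9.25, 3.18 and 8.91 in scaffold replicates 1 to 3, against 20.2, 18.5 and 31.4 in plate replicates 1 to 3. The scaffold mean of 7.11 ± 3.41 was 3.29-fold lower than the plate mean of 23.4 ± 6.999 (SD, n = 3 each), with a log2 fold change of -1.66 (SE 0.42). Scaffold replicate 2, with 3 reads, was the low library, and without it the log2 fold change was -1.24. Of the exon length of Usp18, 4.44% is shared with the opposite-strand transcript Gm44148, and reads on that part cannot be assigned because the labels do not say whether counting used strand.

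Xaf1 encodes an antagonist of the apoptosis inhibitor XIAP and is itself induced by interferon. It lies on chromosome 11, 72301629 to 72313733, plus strand (ENSMUSG00000040483), and shares no exon sequence with another annotated gene. Its normalised count was 20.6, 30.7 and 10.9 in scaffold replicates 1 to 3, against 44.1, 54.5 and 36.2 in plate replicates 1 to 3. The groups were closest here: the lowest plate library was 1.18 times the highest scaffold library, compared with 1.74 to 3.47 times for the other 4 genes. The scaffold libraries themselves spread 2.82-fold, and the log2 fold change of -1.17 (SE 0.36) became -0.79 without scaffold replicate 3. On the 5 libraries with countable reads it was -0.81 both in edgeR, which called it lower with 67.3% of the table, and in DESeq2, which did not call it while calling 64.4% of the table lower. Summed reads gave a normalised ratio of 0.572 (95% interval 0.404 to 0.798, counting error only).

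The antigen processing genes Psmb9 and Tap1 are direct neighbours on chromosome 17 and are transcribed away from each other. Psmb9, a catalytic subunit that replaces a constitutive one in the immunoproteasome, spans 34181988 to 34187764 on the minus strand (ENSMUSG00000096727). Tap1, which forms the TAP peptide transporter together with Tap2, spans 34187553 to 34197225 on the plus strand (ENSMUSG00000037321). The spans share 212 bases at their starts, which is 5.79% of the exon length of Psmb9 and 3.87% of that of Tap1, so reads there could belong to either gene.

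**Figure D2:**
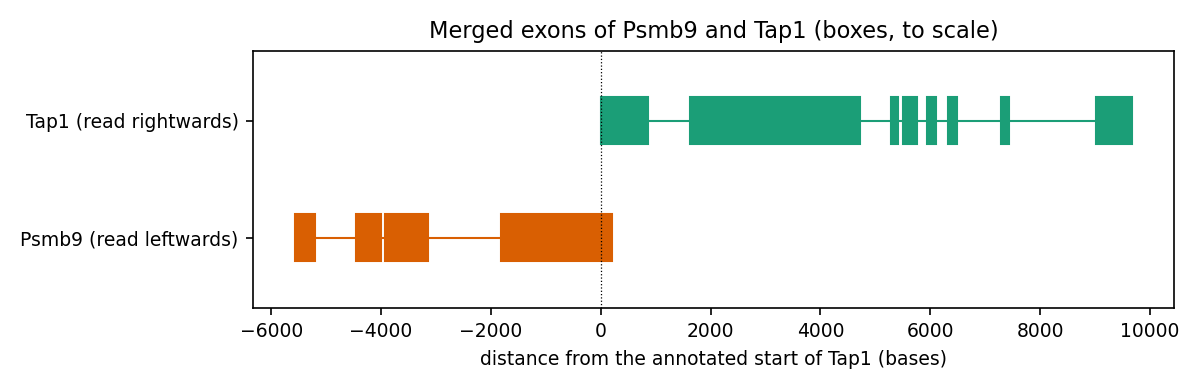
Merged exons (boxes) of Tap1 (upper row) and Psmb9 (lower row) in GENCODE M21, drawn to scale by distance in bases from the annotated start of Tap1. The first exons face each other and overlap over 212 bases.

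The sequences before the starts of Tap1, Psmb9 and Xaf1 are shown because Tap1 and Psmb9 face each other across them and because ISRE and GAS elements were searched there. RefSeq windows of 250 bases before and 50 bases after the start, on GRCm38.p6, were found for 4 of the 5 genes; Usp18 had none in the table used. The windows of Tap1 and Psmb9 share 275 bases, read on opposite strands. RefSeq starts Psmb9 at 34187330 and Tap1 at 34187556, 226 bases apart, whereas the first GENCODE exon of Psmb9 reaches over this stretch into Tap1. The 250 bases before each start follow, with matches to a loose NF-kB pattern (GGG, 5 bases of any kind, CC, on either strand) in capitals.
Tap1 (chr17:34187306-34187555, plus strand): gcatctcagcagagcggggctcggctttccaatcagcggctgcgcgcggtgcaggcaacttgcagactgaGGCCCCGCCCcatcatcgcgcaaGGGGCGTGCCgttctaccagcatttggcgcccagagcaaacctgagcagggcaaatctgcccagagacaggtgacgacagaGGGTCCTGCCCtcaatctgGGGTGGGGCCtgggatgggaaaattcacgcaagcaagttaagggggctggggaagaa
Psmb9 (chr17:34187331-34187580, minus strand): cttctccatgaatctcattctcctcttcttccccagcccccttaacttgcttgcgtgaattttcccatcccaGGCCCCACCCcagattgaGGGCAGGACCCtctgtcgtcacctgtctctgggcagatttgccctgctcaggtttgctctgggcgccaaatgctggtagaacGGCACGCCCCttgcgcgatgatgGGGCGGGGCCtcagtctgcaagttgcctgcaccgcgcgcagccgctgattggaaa
Xaf1 (chr11:72301379-72301628, plus strand): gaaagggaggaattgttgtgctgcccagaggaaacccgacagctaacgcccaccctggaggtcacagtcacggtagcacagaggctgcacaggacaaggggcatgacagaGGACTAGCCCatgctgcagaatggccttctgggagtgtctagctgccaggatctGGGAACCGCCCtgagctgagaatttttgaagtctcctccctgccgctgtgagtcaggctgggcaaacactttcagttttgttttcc

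The ISRE core (GAAA, 2 bases of any kind, GAAA), searched on both strands, was found in none of the 4 windows, while 3.44% of 32851 RefSeq windows of the same length hold it. The same pair of half-sites with 3 bases between them (2.75% of windows) and the GAS pattern TTCNNNGAA (8.30%) were likewise not in the 4 windows. The loose NF-kB pattern was in the windows of Tap1, Psmb9 and Xaf1 and not in that of Oasl2, beside 50.8% of all windows. It overlaps itself on opposite strands and overlaps the GC box GGGCGG, which was in the same 3 windows and in 35.7% of all windows. The matches of Tap1 and Psmb9 are the same sites, read on opposite strands of their shared 275 bases. These windows therefore do not count as separate promoters beside the shares. The pattern TATAAA was in the window of Oasl2, on the strand opposite to the gene at -187 to -182 from the start. It was in 13.6% of all windows. After the Xaf1 window had been read, the narrower spacing GAAANGAAA was also searched. It occurs in Xaf1 from base 11 to base 19 counted from the start, and in 3.17% of all windows.
Xaf1 (chr11:72301631-72301655, plus strand, the GAAANGAAA match in capitals): tgtgcaaaGAAACGAAActccacag
A missing match says only that these letters are not in these windows, and a match is not a bound site.

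Psmb9 had normalised counts of 37.0, 35.0 and 20.8 in scaffold replicates 1 to 3, against 68.0, 73.1 and 79.9 in plate replicates 1 to 3. The mean was 30.9 ± 8.84 in scaffold cells and 73.7 ± 5.98 in plate cells, a 2.38-fold lower value with a log2 fold change of -1.27 (SE 0.25). Scaffold replicate 3 was the low library, and without it the log2 fold change was -1.01. Tap1 had the highest values of the 5 genes and the smallest relative spread in scaffold cells. Its normalised counts were 129, 124 and 105 in scaffold replicates 1 to 3, against 268, 245 and 224 in plate replicates 1 to 3. The scaffold mean of 119 ± 12.5 was 2.06-fold lower than the plate mean of 245 ± 21.95, near the smallest fold of 1.997 in the table, and the decrease ranked 364 among 392. With 242 reads in scaffold replicates 1 and 2 and 764 plate reads, the normalised ratio of Tap1 was 0.514 (95% interval 0.443 to 0.595, counting error only). That of Psmb9 was 0.489 (0.368 to 0.643), and the intervals of these neighbours overlap.

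**Figure D3:**
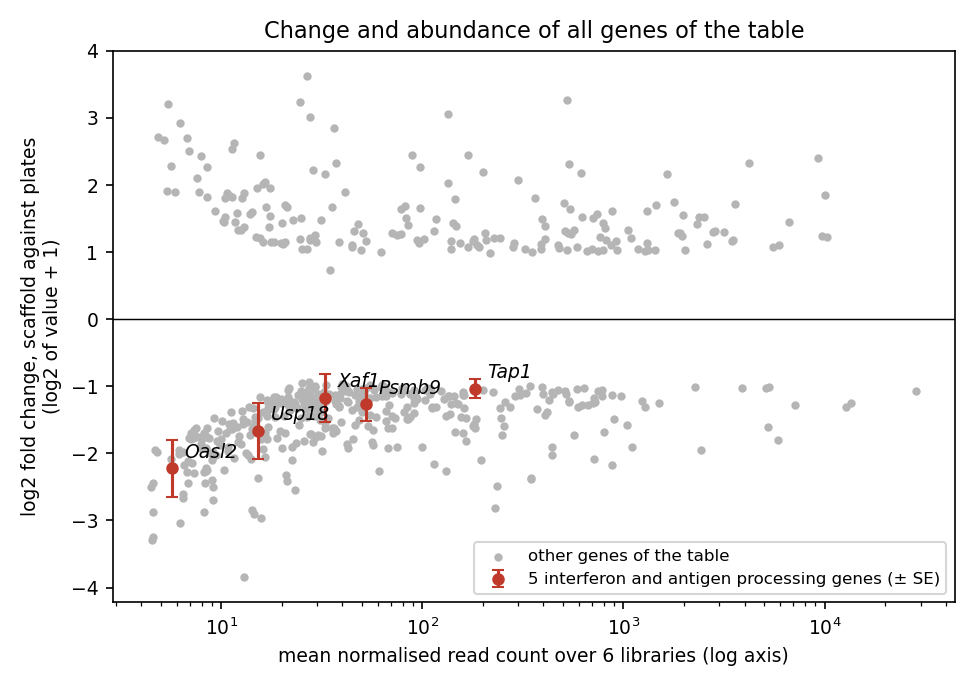
Log2 fold change, scaffold against plates, on log2(value + 1) (vertical axis) against the mean normalised read count over 6 libraries (horizontal log axis) for all 581 genes; red points with SE bars are the 5 genes. They run from Oasl2 at -2.22 and low counts to Tap1 at -1.04, inside the band of decreases of the table.

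Because the values are not corrected for length, levels of the 5 genes were compared per kb of gene length as listed in the table. In scaffold cells the normalised count per kb was 21.8 ± 2.29 for Tap1, 8.45 ± 2.41 for Psmb9, 4.42 ± 2.11 for Xaf1, 2.55 ± 1.22 for Usp18 and 0.216 ± 0.101 for Oasl2. In plate cells it was 44.8 ± 4.01 for Tap1, 20.1 ± 1.63 for Psmb9, 9.59 ± 1.96 for Xaf1, 8.38 ± 2.51 for Usp18 and 1.57 ± 0.364 for Oasl2 (SD, n = 3). The order of the means was the same on both surfaces. The libraries of Xaf1 and Usp18 overlapped in both groups, and Usp18 was above Xaf1 in scaffold replicate 3 and plate replicate 3, so these neighbours in the order did not differ beyond their spread. Psmb9 and Xaf1 overlapped across the scaffold libraries, but Psmb9 was above Xaf1 within each of them, at 10.1, 9.55 and 5.68 per kb against 4.39, 6.55 and 2.32 per kb in scaffold replicates 1 to 3.

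Ratios between genes within a library do not depend on the single factor by which that library was divided. Quantile normalisation, used below, does not keep these ratios, and the shift to equal medians keeps those of value + 1 instead. The ratio of the normalised count of Tap1 to that of Psmb9 was 3.47, 3.55 and 5.05 in scaffold replicates 1 to 3, against 3.93, 3.35 and 2.80 in plate replicates 1 to 3, and the groups overlapped. Tap1 to Xaf1 overlapped too, at 6.25, 4.03 and 9.64 in scaffold replicates against 6.06, 4.49 and 6.18 in plate replicates. Tap1 to Oasl2 was 125, 58.5 and 106 in scaffold replicates against 36.4, 21.6 and 19.6 in plate replicates. Those groups did not overlap, with 1 or 2 reads of Oasl2 behind each scaffold value that could be counted. The groups were also apart for Psmb9 to Oasl2 and Xaf1 to Oasl2, which rest on the same few reads of Oasl2. Oasl2 had the largest decrease of these genes, which were picked with their values known. The share of gene pairs in the table with such a gap was not computed, so nothing is read from these gaps. Usp18 to Oasl2 overlapped, at 9.0, 1.5 and 9.0 in scaffold replicates against 2.75, 1.64 and 2.75 in plate replicates. All ratios without Oasl2 overlapped.

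The size of the decrease depended on the scaling that was chosen. Shifting the log2(value + 1) of each library to equal medians over the table moved the table-wide median of the log2 fold changes by 0.74. The shift left 34.4% of the genes called lower and 32.5% called higher. Since it was made after 1 had been added, it is not a pure change of library scale at low counts such as those of Oasl2. It gave log2 fold changes of -1.48 for Oasl2, -0.92 for Usp18, -0.52 for Psmb9, -0.43 for Xaf1 and -0.29 for Tap1, with a call for Oasl2 alone. Quantile normalisation moved the median by 0.63, left 36.1% called lower and 32.2% called higher, and kept the calls of Oasl2 (-1.31) and Tap1 (-0.72). Both rescalings make the libraries alike over these selected genes, most of which were lower as deposited, so they cannot decide whether the deposited scaling is right. No gene of the 5 changed sign under either.

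**Figure D4:**
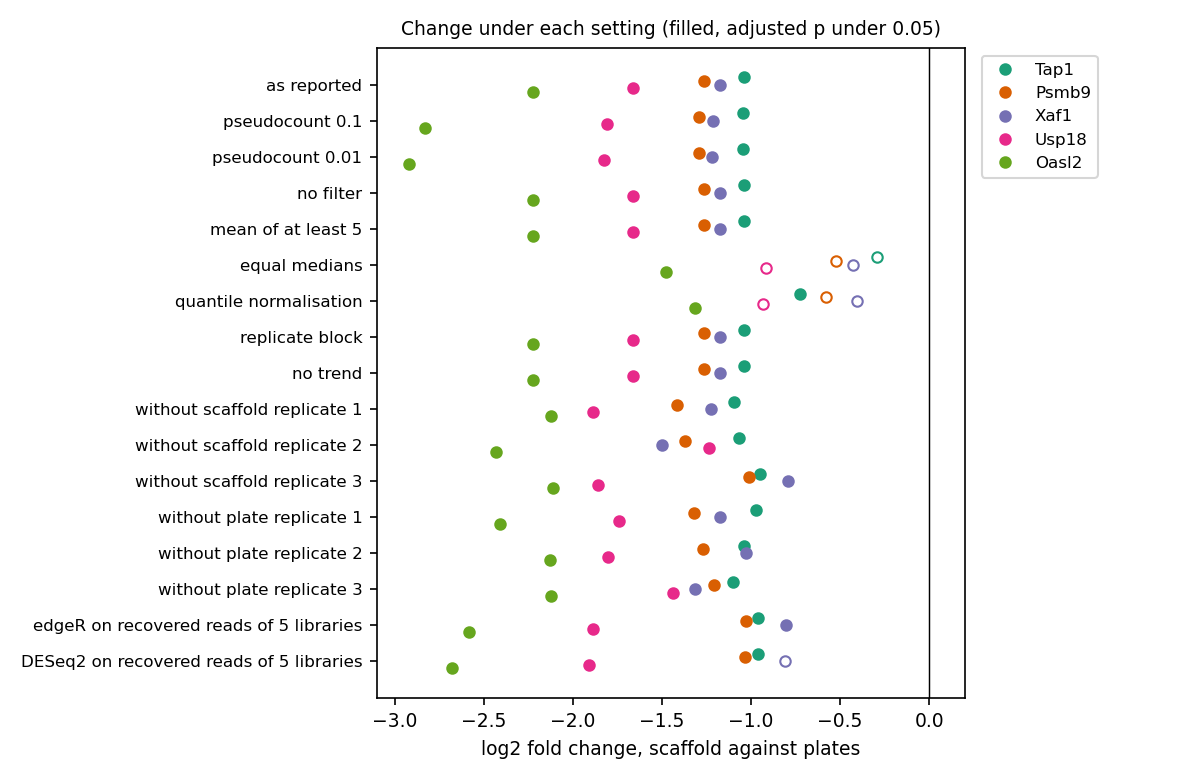
Log2 fold change, scaffold against plates (horizontal axis), of the 5 genes under each setting (rows); filled points passed an adjusted p of 0.05 and open points did not. All points lie below 0, and open points occur under equal medians, quantile normalisation and, for Xaf1, DESeq2.

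The 5 genes did not vary alike among replicates of a surface. In scaffold replicate 3, Tap1, Psmb9, Xaf1 and Oasl2 deviated from their scaffold means by -0.18, -0.51, -0.76 and -0.23 on the log2(value + 1) scale, and Usp18 by 0.40. In scaffold replicate 2, Usp18 deviated by -0.85, and Xaf1 and Oasl2 by 0.66 and 0.42. The median deviation of the 392 genes called lower was 0.18, -0.03 and -0.15 in scaffold replicates 1 to 3, and the part of these library shifts in the values of the 5 genes was not tested. The coefficient of variation in scaffold cells ranged from 10.5% for Tap1 to 48.0% for Usp18, and in plate cells from 8.11% for Psmb9 to 29.9% for Usp18. It was higher in scaffold cells for all 5 genes, as it was for 67.6% of the genes in the table. Counting alone, taken as the inverse square root of the mean normalised count, would give 85.2% for Oasl2, 37.5% for Usp18, 21.97% for Xaf1, 18.0% for Psmb9 and 9.16% for Tap1 in scaffold cells. The observed scaffold value of Oasl2 (46.5%) was below its counting value, and those of the other 4 genes were above theirs, with 47.8% for Xaf1. In plate cells counting alone would give 31.6% for Oasl2, 20.7% for Usp18, 14.9% for Xaf1, 11.7% for Psmb9 and 6.38% for Tap1. The observed plate values of Oasl2 (23.1%) and Psmb9 (8.11%) were below these, and those of Usp18, Xaf1 and Tap1 were above. The counting value is larger in scaffold cells for each gene, since its counts are lower there, and its part in the larger scaffold spread was not tested.

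**Figure D5:**
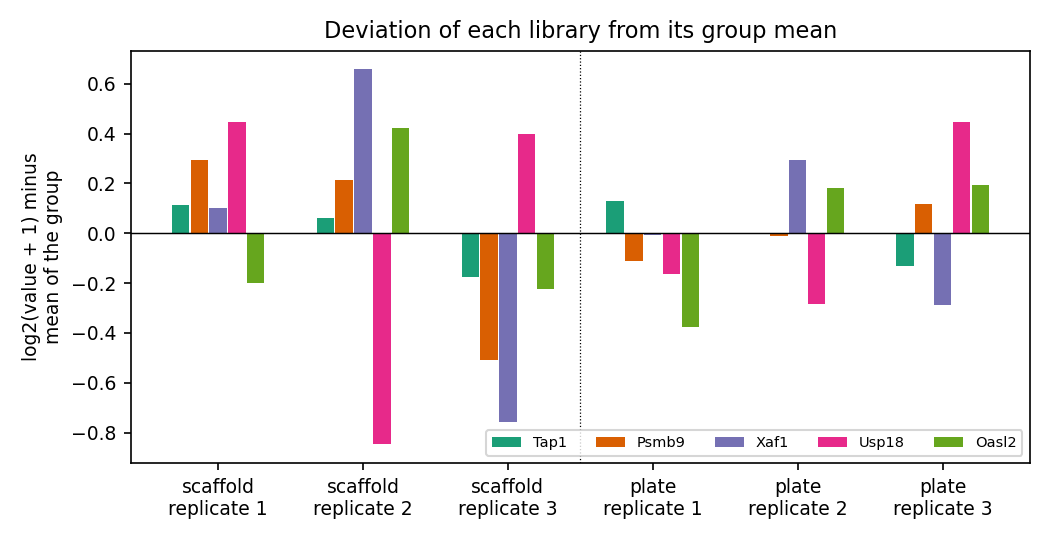
Deviation of log2(value + 1) from the mean of its own group (vertical axis) for the 5 genes (bars) in each library, scaffold replicates left of the dotted line and plate replicates right of it. Xaf1 and Usp18 point in opposite directions in scaffold replicates 2 and 3 and in plate replicates 2 and 3.

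Across the 6 libraries the correlation of log2(value + 1) was highest between the neighbours Psmb9 and Tap1 (Pearson r = 0.95) and lowest between Usp18 and Xaf1 (r = 0.45). The group difference that chose the genes is part of these values. On deviations from the group means, r was 0.58 for Psmb9 and Tap1, 0.74 for Xaf1 and Psmb9, 0.72 for Xaf1 and Tap1, and -0.80 for Usp18 and Xaf1 (6 libraries, with both values of a pair from the same library and so under the same depth and scaling). Among genes with a mean of at least 20, the patterns most like Tap1 were those of Pde1a, Ephx1 and Gm3716 (r from 0.995 to 0.999), and those most like Psmb9 were Vdr, Col12a1 and Gm33869 (each r = 0.990). Usp18 was closest to Celf3, Il15ra and Abhd3 (r from 0.988 to 0.989), Xaf1 to Gm32219, Aspa and Tmem176b (r from 0.971 to 0.979), and Oasl2 to Lama5, Pdzd7 and Gm35019 (r from 0.990 to 0.994). None of these is Tap1, Psmb9 or Xaf1. Oasl2 and Usp18, with means of 5.71 and 15.25, were under the limit of 20 and could not be named. High values were common: 207 of 410 genes (50.5%) reached r = 0.9 with Tap1, and 21 of 410 (5.12%) did so with Xaf1.

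Other genes of the interferon and antigen pathways were read from fixed lists. Of 77 symbols of interferon-stimulated genes, 6 were in the table, and all 6 were called lower in limma. Of these, 3 are Oasl2, Usp18 and Xaf1, which were picked with their values known. The remaining symbols are absent from a table that the authors chose on this contrast, so nothing is said here about interferon-stimulated genes in general. Uba7, the enzyme that activates ISG15 for conjugation, had normalised counts of 46.3, 36.0 and 27.7 in scaffold replicates 1 to 3, against 79.1, 81.3 and 83.8 in plate replicates 1 to 3. Usp18, which takes ISG15 off again, and Uba7, which starts its attachment, were thus both lower in scaffold cells. Parp14, an interferon-induced ADP-ribosyltransferase, had 25.7, 19.1 and 25.7 in scaffold replicates against 50.6, 47.3 and 65.7 in plate replicates. Oas1c, of the mouse Oas1 family, had 5.14, 8.47 and 3.96 in scaffold replicates against 11.03, 21.6 and 26.6 in plate replicates. The log2 fold changes were -1.16 for Uba7, -1.18 for Parp14 and -1.57 for Oas1c. Equal medians ended the calls of all 3, at -0.41, -0.43 and -0.82, and quantile normalisation those of Parp14 (-0.49) and Oas1c (-0.69). Oas1c and Oasl2 belong to families of similar genes, and Oas1c shares 9.44% of its exon length with an opposite-strand transcript, so their reads are less certain. Uba7, Parp14 and Ciita share 3.48%, 1.18% and 3.45% of their exon length with other annotated genes.

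Of 24 symbols for class I processing and presentation, only Psmb9 and Tap1 were in the table, and the others were not analysed here. Of 11 class II symbols, the table held Ciita, the coactivator that switches on class II genes, with 9.25, 6.36 and 7.92 in scaffold replicates 1 to 3, against 22.1, 21.6 and 19.0 in plate replicates 1 to 3. Its log2 fold change of -1.32 lost its call at -0.57 with equal medians and at -0.54 with quantile normalisation. None of the 31 constitutive proteasome symbols, the 30 symbols for interferons, their receptors and signal transducers or the 19 symbols for nucleic acid sensing was in the table, and these genes were not analysed here. Of 28 symbols of the NF-kB response, a pathway that can also raise Psmb9 and Tap1, the table held the monocyte chemoattractant Ccl2, which rose, and the pattern recognition protein Ptx3, which fell. Ccl2 averaged 3588 ± 98.3 in scaffold cells and 1644 ± 114 in plate cells, and Ptx3 71.5 ± 61.9 in scaffold cells and 390.05 ± 13.8 in plate cells (SD, n = 3 each). The log2 fold change of Ccl2 was 1.13, with 1.87 under equal medians and 0.28 under quantile normalisation. That of Ptx3 was -2.82, with -2.07 and -2.47 under these rescalings, -3.49 without scaffold replicate 1 and -2.17 without scaffold replicate 3. All these values kept their calls. The counts of these lists stand beside 67.5% of all genes called lower and 32.2% called higher.

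Of 12 fibroblast markers, the table held Col1a1 and Col1a2, both abundant and lower in scaffold cells, although quantile normalisation set the difference of Col1a2, the highest gene of every library, to 0. No symbol of the macrophage list, the lymphocyte and NK cell list or the endothelial list was in it. The epithelial list had Krt8, at 34.8 ± 4.35 in scaffold cells and 14.7 ± 2.38 in plate cells, and its part in the lower interferon genes was not tested.

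In the genome, Psmb9 and Tap1 are the only pair of the 5 genes within 1 Mb of each other. The other genes of the table within that distance of them were Angptl4 and Kank3, and both were higher in scaffold cells. Around Xaf1, Spns3 was higher while Aipl1 and Aspa were lower, and near Usp18 the table held Klrg1, which was higher. Oasl2 had no neighbour from the table within 1 Mb.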

How the data were processed

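Reads came from 6 NIH-3T3 libraries (TRIzol RNA, NEBNext Ultra kit, per the labels' protocols). The tools fastp, HISAT2, HTSeq and DESeq2 and the build GRCm39 are named, per the submitters' processing notes; their roles and versions were not given in the sources used here. What the authors deposited is a normalised signal: counts divided by a size factor per library (0.944 to 1.09), although the table names say FPKM. Dividing by the smallest step of a library turned 100% of its values into whole reads (tolerance 0.01 read). Over the 581 genes this gave 264178 to 293198 reads in 5 libraries. Scaffold replicate 3 has a step near 1 and was not accepted, although its values were whole at that step too. Its reads entered no count test or read ratio. These therefore leave out the lowest scaffold library of Oasl2, Xaf1, Psmb9 and Tap1. All 581 identifiers are in GENCODE M21 (GRCm38), 555 with the same start and end, so coordinates are given as GRCm38.

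The fit was limma 3.58.1 (R 4.3.3), a moderated test with intensity trend on log2(value + 1), two-sided, for genes with a mean of at least 0.5 (none removed), with Benjamini-Hochberg adjustment over all 581 genes and a threshold of 0.05. edgeR 4.0.16 called 580 genes and DESeq2 1.42.0 called 554 on the recovered reads. With 3 libraries a side, exact permutation cannot go below p = 0.1 and was not used. The p-values reflect the spread among these libraries, which may be technical only. Genes named are the 5 genes, all list genes in the table, and the 3 genes most correlated with each of the 5 among those with a mean of at least 20; neighbours within 1 Mb were named after their values were seen. The members and lists were chosen with earlier results of these data known.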

Additional observations from a re-analysis of the deposited data

How the results depend on the processing

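Over 16 alternative settings, all 80 values of the 5 genes kept their direction, and 72 kept their call. For each gene every scaffold library lay below every plate library, so only the median and quantile rescalings could have changed a direction. The filters, the replicate block and the fit without trend leave the fold change itself as it was, so the kept directions are no support. Outside the median and quantile rescalings, 95.4% to 99.8% of the genes tested were called in either direction. The kept calls are therefore no support either. Of the 5 genes, 1 was called with equal medians and 2 with quantile normalisation. With equal medians the log2 fold changes that lost their call were -0.92 for Usp18, -0.43 for Xaf1, -0.52 for Psmb9 and -0.29 for Tap1, and with quantile normalisation they were -0.93 for Usp18, -0.41 for Xaf1 and -0.58 for Psmb9. In the whole table, 200 genes (34.4%) were called lower with equal medians and 210 (36.1%) with quantile normalisation, beside 392 (67.5%) as deposited. In either direction, 389 and 397 genes were called under these settings, beside 579 as deposited. In DESeq2 on 5 libraries Xaf1 lost its call at -0.81, where scaffold replicate 3, its lowest library, was not included. Leaving out each library in turn gave -2.43 to -2.11 for Oasl2, -1.89 to -1.24 for Usp18, -1.501 to -0.79 for Xaf1, -1.41 to -1.01 for Psmb9 and -1.10 to -0.95 for Tap1, with 573 to 579 genes called and all 5 genes called each time. The replicate block called 580 genes and changed no call of the 5. Deviations of same-numbered libraries correlated at -0.03, 0.07 and 0.06, and those of differently numbered libraries at -0.10 to 0.03. Such weak correlations cannot decide whether the numbers pair the samples. Merged exons have the listed length in Oasl2, Usp18, Xaf1 and Tap1, and 3660 against 3659 bases in Psmb9. Their use in place of the listed length could therefore hardly change a level per kb. Counting only the 250 bases before the start lowered the shares of windows, to 2.98% for the ISRE core and 45.8% for the NF-kB pattern. Few reads limit Oasl2 and Usp18 most.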
